A study of Mus musculus with 24 samples.

Results

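Long noncoding RNAs are transcripts with little or no protein coding sequence, and 142 of them were followed here across the knockouts of a chromatin complex in mouse leukaemia cells. They are the genes of 5 annotation types with a mean of at least 5 CPM (counts per 1e6 counts of a library) over all 24 libraries, out of 5095 genes of those types in a count table of 43629 genes. By type, 76 were lincRNAs (between protein-coding genes), 54 antisense RNAs, 9 RNAs from bidirectional promoters, 2 sense intronic RNAs and 1 sense overlapping RNA. The members were chosen by this mean level, so levels are given as a description with no test. Just inside the threshold lay C030037D09Rik at 5.05 CPM and Gm29170 at 5.11 CPM, and just outside it 4930568A12Rik at 4.96 CPM and Gm9776 at 4.81 CPM. All 142 passed the edgeR filter on low counts and are among the 10578 genes tested. B230208H11Rik and Gm29170 would have missed the threshold without the DOT1L knockout libraries, and C030037D09Rik without the control libraries. In the comparison of these 2 groups, the values of B230208H11Rik and C030037D09Rik are therefore given with no p.

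The cells are a mouse acute myeloid leukaemia line, labelled MLLAF9, that carries the MLL-AF9 fusion oncogene and expresses Cas9 (the library names also carry YFP). Guide RNAs were delivered by lentivirus at 0.3 viral particles per cell (multiplicity of infection), puromycin at 2 ug/ml was applied for 72 hours from 48 hours after infection, and RNA was harvested on day 9. Each of 8 groups had 3 libraries: a non-targeting control and a DOT1L knockout, each with a single guide named in its labels, and guide 1 and guide 2 of MLLT10, MLLT1 and MLLT6. All groups share the line, the fusion, Cas9, the virus and the selection. The labels give no target site of a guide and name no clone, and the DOT1L knockout has no second guide to set beside it. They do not say that replicates were separate cultures, so a p-value here reflects only the spread between the samples at hand, and that spread may be technical.

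Some long noncoding RNAs work as nuclear scaffolds, others are the primary transcripts from which microRNAs or snoRNAs are cut, and for others the act of transcription or the DNA of the locus affects a neighbouring gene. Many have no known role, and 112 of the 142 carry only a clone or predicted name. DOT1L is the histone methyltransferase that marks the bodies of transcribed genes, and MLL fusions depend on it to keep genes such as those of the Hox clusters active. MLLT10, MLLT1 and MLLT6 encode partner proteins of the complexes DOT1L works in. In the myeloid lineage, miR-223 is known from maturing granulocytes, miR-142 from blood cells in general, and the miR-17 to miR-92a cluster from growth and lymphoid cancers.

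RefSeq places mature microRNAs inside 4 members on the same strand. Those of F630028O10Rik and Mir142hg and 6 of those of Mir17hg are shown, because they are the known products of hosts described below. The fourth, the snoRNA host Snhg20, holds miR-6516-5p and miR-6516-3p. Sequences are those of RefSeq on GRCm38.p6, written 5′ to 3′, and capitals mark the seed, bases 2 to 8. F630028O10Rik (chromosome X, 96239926 to 96243636) holds miR-223:
miR-223-5p: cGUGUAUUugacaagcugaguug
miR-223-3p: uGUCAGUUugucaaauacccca
Mir142hg (chromosome 11, 87755577 to 87757270) holds miR-142a:
miR-142a-5p: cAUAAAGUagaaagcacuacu
miR-142a-3p: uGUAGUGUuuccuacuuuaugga
Mir17hg (chromosome 14, 115042879 to 115046727) holds 11 mature microRNAs with 9 different seeds. miR-17-5p and miR-20a-5p share the seed AAAGUGC, and miR-19a-3p and miR-19b-3p share GUGCAAA:
miR-17-5p: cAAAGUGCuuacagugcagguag
miR-20a-5p: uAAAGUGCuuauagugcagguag
miR-19a-3p: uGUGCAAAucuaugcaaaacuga
miR-19b-3p: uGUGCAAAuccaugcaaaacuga
miR-18a-5p: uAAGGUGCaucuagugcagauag
miR-92a-3p: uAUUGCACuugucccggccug
The counts measure reads of the host transcript. They do not measure these mature microRNAs.

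Promoter windows of 4 members are shown for the largest fall (Platr26), for the microRNA host that rose (F630028O10Rik) and for both called members whose window also holds the start of a protein-coding gene on the other strand. Each runs from 250 bases before to 50 bases after the RefSeq start on GRCm38.p6, on the strand of the gene, with capitals at matches of GGGCGG (the core of a GC box), CCAAT (the CCAAT box), TATAAA (the TATA box), TTGCNNAA (a C/EBP-like motif) or TGATNNAT (a Hox and Meis-like motif) on either strand:
Platr26 (chr2:71719167-71719466, plus strand): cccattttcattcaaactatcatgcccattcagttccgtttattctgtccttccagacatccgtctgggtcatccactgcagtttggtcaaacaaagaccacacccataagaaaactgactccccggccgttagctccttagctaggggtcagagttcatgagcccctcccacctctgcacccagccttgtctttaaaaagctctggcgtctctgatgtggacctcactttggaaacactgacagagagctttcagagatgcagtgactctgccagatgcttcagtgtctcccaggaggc
F630028O10Rik (chrX:96239676-96239975, plus strand): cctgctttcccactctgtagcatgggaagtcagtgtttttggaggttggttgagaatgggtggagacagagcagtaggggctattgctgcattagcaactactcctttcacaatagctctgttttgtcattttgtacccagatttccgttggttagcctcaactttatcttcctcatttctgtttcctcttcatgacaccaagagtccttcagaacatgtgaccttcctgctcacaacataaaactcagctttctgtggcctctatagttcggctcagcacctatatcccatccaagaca
C030037D09Rik (chr11:88718393-88718692, plus strand): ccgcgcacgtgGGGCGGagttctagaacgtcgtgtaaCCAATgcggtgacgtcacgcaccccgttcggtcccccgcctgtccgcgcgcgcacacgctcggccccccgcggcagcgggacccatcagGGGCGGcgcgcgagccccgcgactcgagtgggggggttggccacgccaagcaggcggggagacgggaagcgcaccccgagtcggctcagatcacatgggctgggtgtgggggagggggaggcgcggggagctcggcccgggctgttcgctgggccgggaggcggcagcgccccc
Gm17586 (chr11:120633500-120633799, plus strand): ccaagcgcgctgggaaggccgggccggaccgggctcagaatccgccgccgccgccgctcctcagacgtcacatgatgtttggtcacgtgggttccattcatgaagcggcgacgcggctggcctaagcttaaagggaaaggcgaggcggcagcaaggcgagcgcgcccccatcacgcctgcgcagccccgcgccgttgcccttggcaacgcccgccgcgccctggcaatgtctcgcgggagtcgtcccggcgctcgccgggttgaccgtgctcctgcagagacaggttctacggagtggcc
The Platr26 and F630028O10Rik windows held 5 and 2 CG dinucleotides, the C030037D09Rik and Gm17586 windows 42 and 39. The start of Msi2 lies at base 121 of the C030037D09Rik window and that of Mafg at base 101 of the Gm17586 window. RefSeq windows matched 79 of the 142 members, with a median of 14 CG dinucleotides beside 7 over all 32851 windows. GGGCGG was in 53.2% of the 79 beside 35.7% of all windows, CCAAT in 41.8% beside 37.4%, TATAAA in 7.59% beside 13.6%, TTGCNNAA in 7.59% beside 10.8% and TGATNNAT in 5.06% beside 8.85%. The 79 were chosen by their level and the 32851 windows were not, and the part of this choice in the differences was not tested. A match is a run of letters and not a measured binding site.

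Library totals ranged from 2403044 to 7415397 counts, and the members held between 0.368% and 0.486% of them. The lowest share was in the DOT1L knockout (0.368% to 0.385%) and the control held 0.426% to 0.469%. Dot1l mRNA was at 72.9 ± 2.84 CPM (SD, n = 3) in the control and at 44.6 ± 3.90 CPM (n = 3) in its knockout. The mRNAs of the other targeted genes did not pass the test in their own knockouts (edgeR). Mllt10 was at 10.0 ± 1.51 CPM with its guides beside 16.9 ± 2.18 CPM in the control (adjusted p = 0.139 by edgeR), and Mllt6 at 18.9 ± 2.94 CPM beside 35 ± 6.39 CPM (0.496). Mllt1 went the other way, at 46.5 ± 12.4 CPM (SD, n = 6) beside 30.3 ± 9.95 CPM (n = 3; log2 fold change 0.62, edgeR adjusted p = 0.148), a direction against its label that did not pass the test, so MLLT1 below means the libraries labelled MLLT1. Markers of the labelled cell type were present: the summed level of 6 myeloid genes was 421 to 664 CPM over all libraries. The summed level of 8 neutrophil genes was 2060 to 2600 CPM in the control and 95800 to 109000 CPM in the DOT1L knockout. It was 3410 to 5070 CPM with MLLT10, 3280 to 4140 CPM with MLLT1 and 1760 to 3070 CPM with MLLT6 guides. With MLLT1 guides Elane averaged 669 CPM beside 943 CPM in the control, and Prtn3 507 beside 756 CPM. The other genes of that list averaged higher with MLLT1 than in the control. The summed level of 5 macrophage genes was 171 to 273 CPM in the control, 46.1 to 65.6 CPM in the DOT1L knockout and 102 to 225 CPM elsewhere. C1qa was at 0 in every library. Most of this sum was Adgre1, which averaged 219 CPM in the control and 39.1 CPM in the DOT1L knockout. Csf1r went the other way, from 1.42 to 8.18 CPM. The summed level of 3 stroma genes was 14.6 to 20 CPM in the DOT1L knockout and at most 1.5 CPM in every other library. In the DOT1L knockout this was Col1a1 alone, since Col1a2 was at 0 there and Pdgfra at 0 in every library. The 4 B cell markers and the T cell markers Cd3e, Cd4 and Cd8a were at 0 in every library. Of the other T cell markers, Cd3d reached 2.23 CPM in the DOT1L knockout and 2.06 CPM in the control. Cd3g reached at most 0.391 CPM. Less RNA of a kind per cell and fewer cells of a kind cannot be told apart in bulk RNA, and the part of these shifts in the results below was not tested.

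The members were mostly low in abundance and a few carried much of the signal. Their mean levels ran from 5.05 to 363 CPM with a median of 12.4 CPM, beside a median of 30.3 CPM over all tested genes, and 19 members reached 50 CPM. The 5 most abundant held 34.6% of the members' summed CPM. Snhg9, a snoRNA host (chromosome 17, 24719531 to 24719965), led at 363 CPM, followed by Neat1 at 328 CPM, Gm26917 at 286 CPM, Gm10076 at 270 CPM and 1810058I24Rik, which is reported to encode a short mitochondrial protein, at 258 CPM. 1700020I14Rik, the mouse Oip5 antisense RNA also called Cyrano, was at 146 CPM, Gm26825 at 120 CPM and F630028O10Rik at 112 CPM. Reads of Gm26825 are uncertain because 91.8% of its exon bases are shared with another gene, Gm15459.

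Per exon length the order differed. Snhg9 stood at 1980 CPM per kb of exon, Gm10076 at 704, Epb41l4aos (a snoRNA host) at 225, 1810058I24Rik at 92.6 and Gm26917 at 85.8. Neat1, with 20.8 kb of exon, came to 15.8 CPM per kb and rank 37, and Malat1, with 6.98 kb, to 12.4 CPM per kb and rank 53. The lowest of all was Kcnq1ot1, the imprinted RNA antisense to Kcnq1, at 0.119 CPM per kb over 93.1 kb.

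The members lie close to protein-coding genes. The nearest such gene overlapped 62 of the 142, in 57 cases on the opposite strand, and lay within 1000 bp of a further 23. Exon bases were shared with another gene in 83 members, in 72 with a gene on the opposite strand. Whether counting used strand is not given in the sources used here. Reads over shared bases therefore cannot be assigned to either gene, and the shared percentage of each named member stands beside its values or in the next sentences. Among the snoRNA and microRNA hosts it was 19.6% for Snhg12, 15.7% for Rab26os, 15.2% for Mir17hg, 11.1% for Snhg6, 7.69% for Snhg20, 7.65% for Snhg9 and 3.34% for F630028O10Rik, in part with the small RNAs they host. Of other members, it was 66.6% for AI480526, 26.2% for 9530082P21Rik, 18.9% for 1700048O20Rik, 7.76% for Gm37696, 7.72% for Malat1, 7.4% for Gm14005 and 6.43% for Pvt1. It was at most 3.68% for Gm29170, Lockd, Dubr, Neat1, Kcnq1ot1, Gm26947 and Gm26982.

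In the DOT1L knockout, 23 members were lower and 9 were higher than in the control (edgeR quasi-likelihood test, p adjusted by Benjamini-Hochberg over all genes). The lower share was 16.2% of the members beside 10.7% of all tested genes, and the higher share 6.34% beside 11.2%. In either direction 32 members, or 22.5%, were called beside 21.8% of all tested genes, so the members changed about as often as genes in general. The median log2 fold change was -0.19 over the members and 0.01 over all tested genes. At least 2-fold changes made up 18 of the falls and 7 of the rises. Of the 32, Neat1 and Gm26917 had control and knockout libraries with overlapping ranges. That the others were separated follows largely from the call itself and adds no support. The share over all called genes was not computed. Without B230208H11Rik, C030037D09Rik and Gm29170, whose membership rests on one of these groups, 8 of 139 members were higher (5.76%) and 22 lower (15.8%). Without DOT1L replicate 2, 5 rises passed in place of 9.

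**Figure D1:**
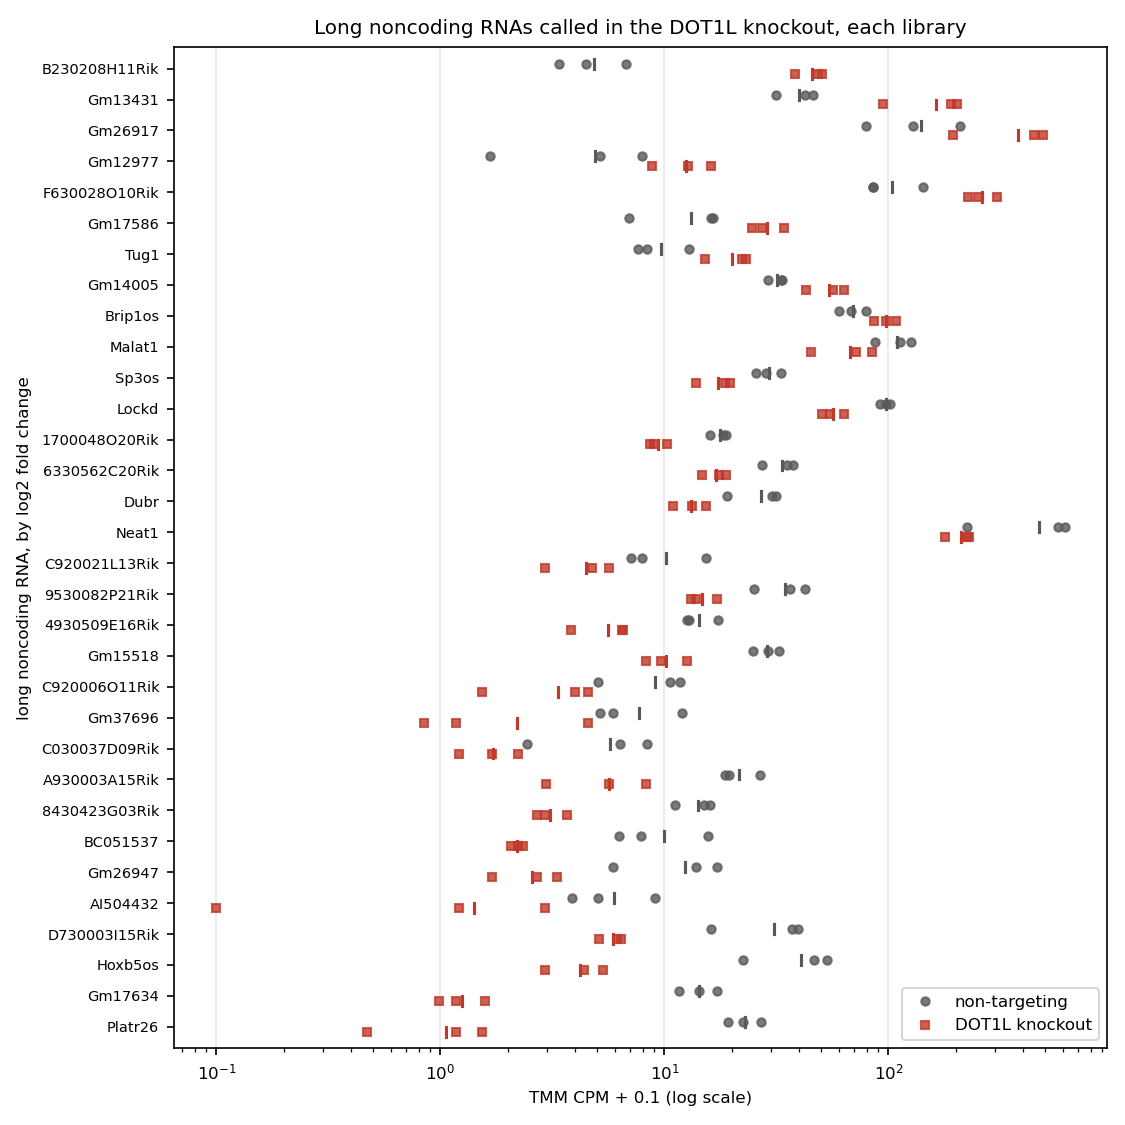
TMM-normalised CPM plus 0.1 on a log axis for the 32 long noncoding RNAs called in the DOT1L knockout, ordered by log2 fold change, with 3 control libraries (circles), 3 knockout libraries (squares) and group means (bars). The groups overlap for Neat1 and Gm26917, and the AI504432 library plotted at 0.1 held no count.

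RNAs of the Hox clusters differed among themselves. Hoxb5os (ENSMUSG00000085645, chromosome 11, 96291024 to 96306910), which overlaps Hoxb5 on the opposite strand with 14.4% of its exon bases shared, was at 22.3, 46.6 and 52.9 CPM in the control libraries and at 5.20, 2.84 and 4.28 CPM in the DOT1L knockout. All 3 knockout libraries were far below the lowest control library. On the log2 scale it fell by 3.29 with an SE of 0.44 (edgeR adjusted p = 6.21e-06), and values after ± are SEs wherever a fold change is given. Hoxb5 itself, a homeobox transcription factor gene, was at 0, 0.313 and 0 CPM in the control and was not tested. Hoxaas3, antisense within the Hoxa cluster and sharing 30.7% of its exon bases, was at 8.66, 3.44 and 3.5 CPM in the control and at 4.83, 7.47 and 9.98 CPM in the knockout. The groups overlapped (log2 fold change 0.57 ± 0.52, edgeR adjusted p = 0.493). Of all tested genes 10.7% were lower and 11.2% higher. The Hox and MLL target list, chosen with earlier results known, had 4 tested genes, of which 3 fell and none rose with a median of -2.13. The other falls were those of Hoxa11os and Gm15050, which are no members by type and level.

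Platr26 (ENSMUSG00000064263, chromosome 2, 71719417 to 71730966), first described as a pluripotency-associated transcript, had the largest fall. It was at 22.3, 26.9 and 19.1 CPM in the control and at 0.372, 1.07 and 1.43 CPM in the knockout. These knockout levels rest on 12 counts in all, beside 189 in the control. This is a log2 change of -4.40 ± 0.38 (edgeR adjusted p = 6.89e-09). Gm17634, antisense to Rnf152 with 22.2% of its exon bases shared, went from 11.5, 14.1 and 17.1 CPM to 1.49, 1.07 and 0.891 CPM. Its log2 fold change was -3.66 ± 0.43 (edgeR adjusted p = 7.60e-07). Both RNAs thus came close to the level of a few reads per library.

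Members with known nuclear roles moved in both directions. Neat1 (ENSMUSG00000092274, chromosome 19, 5824708 to 5845478), the scaffold of nuclear paraspeckles, was at 223, 611 and 570 CPM in the control and at 179, 229 and 224 CPM in the knockout. Control replicate 1 lay between the knockout libraries, so the groups overlapped. At each replicate number the knockout library was below the control library, though what the numbers stand for is not given. The fall was 1.15 ± 0.30 (edgeR adjusted p = 0.00651) and stayed past the threshold with each library left out (highest adjusted p over its alternatives, 0.0493). Malat1, an RNA of nuclear speckles and the genomic neighbour of Neat1, was at 87.0, 126 and 113 CPM in the control and at 45.0, 71.8 and 84.1 CPM in the knockout. The fall was 0.69 ± 0.20 (edgeR adjusted p = 0.0138), and it did not pass without DOT1L replicate 1 (0.0835) or non-targeting replicate 2 (0.0784). Tug1, a chromatin-associated RNA whose exons share 11.6% of their bases with other genes, Morc2a most of all, was higher, at 23, 22 and 15.1 CPM beside 8.24, 7.51 and 12.8 CPM. The rise of 1.07 ± 0.33 (edgeR adjusted p = 0.0198) did not pass without DOT1L replicate 1 (0.0787) or 2 (0.0641) or non-targeting replicate 1 (0.0713) or 2 (0.108). Kcnq1ot1 was at 31.3, 16.9 and 7.78 CPM in the control and at 18.6, 13.5 and 10.3 CPM in the knockout (edgeR adjusted p = 0.584).

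Among the mRNAs of proteins that handle such RNAs, 3 fell and none rose in 4 lists, beside 10.7% lower and 11.2% higher of all tested genes. Of 10 paraspeckle protein genes, 1 fell and none rose with a median log2 fold change of -0.10. That gene was Pspc1, which encodes a core paraspeckle protein, and its log2 change was -0.54 ± 0.16 (edgeR adjusted p = 0.0185). Of 15 tested genes of the nuclear exosome, which degrades nuclear RNA, and its adaptors, 2 fell and none rose with a median of -0.08. They were Exosc8 (-0.53 ± 0.18, edgeR adjusted p = 0.0330) and Mphosph6 (-0.63 ± 0.22, adjusted p = 0.0384). None of 10 nonsense-mediated decay genes (median 0.19) and none of 7 effectors of X inactivation (median 0.30) passed the test.

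MicroRNA hosts were not alike. F630028O10Rik, the miR-223 host shown above, was at 84.9, 84.8 and 142 CPM in the control and at 227, 250 and 306 CPM in the DOT1L knockout. Every knockout library was above every control library, and the rise was 1.33 ± 0.28 (edgeR adjusted p = 0.00117). The summed level of the neutrophil markers given above was at its highest in the same 3 libraries. Elane alone peaked in an MLLT10 library, at 2170 CPM beside at most 2100 CPM with DOT1L. With MLLT10 and MLLT1 guides the sum was also above the control. There F630028O10Rik had log2 fold changes of 0.01 and -0.33 (edgeR adjusted p = 0.999 and 0.572). A link between this RNA and the markers was not tested. Mir142hg was at 14.4, 11.3 and 13.6 CPM in the control and at 16, 21 and 21.7 CPM in the knockout. Although its groups did not overlap, it did not pass (log2 fold change 0.59 ± 0.31, edgeR adjusted p = 0.192). Mir17hg was at 72.1, 24.1 and 22.2 CPM in the control and at 59.1, 28.4 and 30.7 CPM in the knockout, where replicate 1 was the highest in both groups. Its group means were 39.5 and 39.4 CPM (edgeR adjusted p = 0.998). Of 5 tested genes of the microRNA host list, none passed with a median of -0.00, and F630028O10Rik is in no list because of its clone name.

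None of the 6 snoRNA hosts among the members, whose introns give rise to the small RNAs that guide ribosomal RNA modification, passed the test in the DOT1L knockout. Snhg9 was at 354 ± 107 CPM (n = 3) in the control and 352 ± 92.1 CPM (n = 3) in the knockout. Epb41l4aos went from 125, 112 and 89.4 CPM to 83.2, 66.5 and 75.2 CPM, with no overlap (log2 fold change -0.54 ± 0.23, edgeR adjusted p = 0.0955). Snhg12, Snhg20 and Rab26os had log2 fold changes of -0.24, -0.21 and -0.42 (lowest edgeR adjusted p of these, 0.273). Snhg6 spanned 5.63 to 59.9 CPM within the control group alone, so no difference of its groups was detectable (SE 1.34). Over all tested genes 10.7% were lower and 11.2% higher. Of 12 tested genes in the whole snoRNA host list 2 fell and none rose with a median of -0.39. These were Gas5 (-0.51 ± 0.17, edgeR adjusted p = 0.0395) and Taf1d (-0.58 ± 0.16, adjusted p = 0.0101), which are of other gene types.

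Several members are known from blood cells or cell growth, and they went different ways. Lockd (ENSMUSG00000098318, chromosome 6, 134929092 to 134956798), which lies downstream of the cell cycle inhibitor gene Cdkn1b, was at 91.9, 97.3 and 102 CPM in the control and at 55.0, 63.3 and 50.6 CPM in the knockout. Its fall of 0.79 ± 0.16 had a small error (edgeR adjusted p = 0.000554). Gm14005 (chromosome 2, 128178319 to 128502765), known as Morrbid, an RNA that controls Bcl2l11 and the lifespan of myeloid cells, was higher, at 63.2, 56.2 and 42.6 CPM beside 28.9, 33.2 and 33.4 CPM. The rise of 0.75 ± 0.21 (edgeR adjusted p = 0.0123) did not pass without DOT1L replicate 1 (0.0777) or non-targeting replicate 1 (0.0516). Pvt1, downstream of Myc, was at 8.66, 12.8 and 3.5 CPM in the control and at 7.43, 2.84 and 6.06 CPM in the knockout (edgeR adjusted p = 0.323). Dubr, named for its place upstream of Dppa2, went from 19 to 31.5 CPM in the control libraries to 10.8, 15.3 and 13.2 CPM. Its fall of 1.04 ± 0.36 (edgeR adjusted p = 0.0388) was lost without DOT1L replicate 1 (0.116), 2 (0.0573) or 3 (0.102) and without non-targeting replicate 2 (0.113) or 3 (0.122). The blood and growth list, chosen with earlier results of these data known, had 9 tested genes. Of these 2 rose and 4 fell with a median of -0.62, beside 11.2% higher and 10.7% lower of all tested genes. Gm26917 is among its rises and Platr26 among its falls.

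The largest rise was that of B230208H11Rik (ENSMUSG00000097378, chromosome 10, 12916648 to 12923090). It was at 3.30, 4.38 and 6.61 CPM in the control and at 50.5, 48.3 and 38 CPM in the knockout. Over all 18 libraries of the other knockouts it stayed between 0.599 and 7.97 CPM, so only the DOT1L libraries carried it above the membership threshold. The log2 fold change of 3.25 is a description, since the same libraries made it a member. Gm13431 rose from 31.3, 46.0 and 42.4 CPM to 94.0, 191 and 203 CPM, a log2 change of 2.03 ± 0.35 (edgeR adjusted p = 0.000157).

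Gm26917 is read with caution because of where it lies. Its gene (chromosome 17, 39843013 to 39846341) ends 12 bases before Rn18s-rs5, the 18S ribosomal RNA gene that RefSeq places at 39846354 to 39848202 of GRCm38.p6. It was at 209, 129 and 79.3 CPM in the control and at 194, 488 and 448 CPM in the DOT1L knockout, with overlapping groups (log2 fold change 1.44 ± 0.33, edgeR adjusted p = 0.00220). Whether its reads come from ribosomal precursor RNA was not tested, and how libraries were depleted of such RNA is not given in the sources used here.

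Clone-named members with smaller levels made up most of the other falls. D730003I15Rik went from 16.1, 39.4 and 36.9 CPM to 6.32, 6.04 and 4.99 CPM (log2 fold change -2.44 ± 0.39, edgeR adjusted p = 5.90e-05). A930003A15Rik, with 23.3% of its exon bases shared, went from 18.5, 26.6 and 19.4 CPM to 5.57, 8.18 and 2.85 CPM (-2.03 ± 0.36, edgeR adjusted p = 0.000172). The log2 fold changes of BC051537, Gm26947 and 8430423G03Rik were -2.25, -2.37 and -2.18, and those of Gm15518, 4930509E16Rik and 9530082P21Rik were -1.48, -1.33 and -1.25 (largest edgeR adjusted p of these 6, 0.00103). C030037D09Rik was at 8.24, 6.26 and 2.33 CPM in the control and at 1.11, 2.13 and 1.6 CPM in the knockout. Apart from C030037D09Rik, these members, with Platr26, Gm17634, Hoxb5os, Neat1, Lockd, Gm13431, Gm26917 and F630028O10Rik, stayed past the threshold under every alternative that gave a value.

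The other falls did not pass the threshold in every alternative. Leaving a library out also lowers the sample size, so a lost call does not show that a fall rests on that library. Over the alternatives the log2 fold change of 1700048O20Rik stayed between -1.01 and -0.87, and that of 6330562C20Rik between -1.1 and -0.88. AI504432 (-2.38, edgeR adjusted p = 0.0182) was lost without DOT1L replicate 3 (0.112), which held no count of it, or non-targeting replicate 3 (0.0982). Gm37696 (-1.67, edgeR adjusted p = 0.0215) was lost without DOT1L replicate 1 (0.0868) or 2 (0.0936) or non-targeting replicate 2 (0.186), and when only the compared groups were fitted (0.0541). C920006O11Rik (-1.57, edgeR adjusted p = 0.00607) was lost without DOT1L replicate 3 (0.0662), and C920021L13Rik (-1.21, adjusted p = 0.0138), with 27.3% of its exon bases shared, without DOT1L replicate 2 (0.0727) or non-targeting replicate 2 (0.170). 6330562C20Rik (-0.97, edgeR adjusted p = 0.0165; 21.3% shared) was lost without DOT1L replicate 2 (0.0705) or non-targeting replicate 2 (0.0505), and 1700048O20Rik (-0.93, adjusted p = 0.0148) without the same libraries (0.0545 and 0.0503).

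The other rises likewise did not pass in every alternative. Gm12977 (1.39, edgeR adjusted p = 0.0212), antisense to Rps6ka1 with 21.1% of its exon bases shared, was lost without DOT1L replicate 1 (0.0515) or 2 (0.0949), without non-targeting replicate 2 (0.144) or 3 (0.0515), and when only the compared groups were fitted (0.0605). Gm17586 (1.14, edgeR adjusted p = 0.0132) was lost without DOT1L replicate 2 (0.0594) or non-targeting replicate 2 (0.107). Brip1os, with 20.2% of its exon bases shared, was at 68.0, 79.4 and 60.3 CPM in the control and at 97.7, 108 and 85.9 CPM in the knockout. Its rise of 0.48 ± 0.14 (edgeR adjusted p = 0.0162) was lost without DOT1L replicate 2 (0.0882) or non-targeting replicate 3 (0.0987), with no filter on low counts (0.148) and when only the compared groups were fitted (0.0769).

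Each member was set beside its nearest protein-coding gene, tested in the same fit. Of the 32 called members, 24 had a neighbour that was tested: 9 neighbours were called in the same direction, 1 in the opposite direction, and 14 were not called. The share in the same direction was 37.5%, beside 21.7% for called protein-coding genes and their own nearest protein-coding gene (289 of 1330 pairs), and the opposite share 4.17% beside 5.71%. Without the members whose own membership rests on one of the groups, it was 7 of 22 pairs, or 31.8%. No test was made of this difference. Among the members that share no exon bases with another gene, 5 of 9 pairs went the same way. These 5 include B230208H11Rik and C030037D09Rik, whose membership rests on one of the groups. No share over genes in general was computed for this subset. Of 84 members that were not called and had a tested neighbour, 14 had a called neighbour, where 21.8% of all tested genes were called.

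Platr26 and Itga6, which encodes a laminin receptor subunit, lie 14650 bases apart on the same strand of chromosome 2. Itga6 was at 140, 138 and 152 CPM in the control and at 41.6, 29.9 and 43.7 CPM in the DOT1L knockout, a fall of 1.89 ± 0.19 (edgeR adjusted p = 9.60e-08). D730003I15Rik lies 6415 bases from Atf3, a stress-induced transcription factor gene transcribed the other way. Atf3 was at 7.83, 14.1 and 6.22 CPM in the control and at 1.86, 1.42 and 1.60 CPM in the knockout, a fall of 2.53 ± 0.47 (edgeR adjusted p = 0.000300). In both pairs every knockout library of both genes was below every control library. C030037D09Rik starts 132 bases from Msi2, which encodes an RNA-binding protein of blood stem cells, and both starts lie in the window printed above. Msi2 was at 74.2, 66.0 and 56.0 CPM in the control and at 33.8, 32.3 and 31.2 CPM in the knockout, a fall of 1.01 ± 0.21 (edgeR adjusted p = 0.00113).

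Rnf152, a ubiquitin ligase gene overlapped by Gm17634, fell by 2.07 ± 0.23 (edgeR adjusted p = 4.24e-07), from 20.6, 26 and 24.1 CPM to 5.94, 5.33 and 5.52 CPM. H2-Oa, a class II antigen presentation gene overlapped by BC051537, fell by 1.89 ± 0.34 (edgeR adjusted p = 0.000194). For these and for Gm12977 with Rps6ka1, which encodes a ribosomal S6 kinase (0.64 ± 0.16, edgeR adjusted p = 0.00579), the gene bodies overlap on opposite strands, and reads of each pair cannot be fully told apart. BC051537 shared 38.1% of its exon bases, with H2-Pa more than with any other gene. Ptgs1, the cyclooxygenase gene 7492 bases from Gm13431, rose by 2.13 ± 0.23 (edgeR adjusted p = 2.20e-07), from 68.8, 63.5 and 55.6 CPM to 257, 283 and 284 CPM. Stx11, a membrane fusion gene 15119 bases from B230208H11Rik, rose by 1.21 ± 0.23 (edgeR adjusted p = 0.000441). Bcl2l11, which encodes the cell death protein BIM, rose beside Gm14005 by 0.73 ± 0.20 (edgeR adjusted p = 0.00933), but not past the threshold without DOT1L replicate 3 (0.0572) or non-targeting replicate 1 (0.0681), nor when only the compared groups were fitted (0.0509).

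Other pairs parted. Sp3os, antisense to the transcription factor gene Sp3 with 12.2% of its exon bases shared, went from 25.6, 33.2 and 28.4 CPM to 13.7, 18.5 and 19.6 CPM, while Sp3 went from 28, 27.5 and 27.2 CPM to 46.1, 56.5 and 57.0 CPM. Sp3 rose by 0.95 ± 0.27 (edgeR adjusted p = 0.0128). The fall of Sp3os (0.74 ± 0.25, edgeR adjusted p = 0.0392) was lost without DOT1L replicate 1 (0.141), 2 (0.0714) or 3 (0.0561), without non-targeting replicate 2 (0.142) or 3 (0.0734), and also if low counts were not filtered (0.0607). Beside Lockd, Cdkn1b was at 12.8, 48.5 and 61.0 CPM in the control and at 27.9, 40.2 and 43.1 CPM in the knockout, with overlapping groups (log2 fold change -0.14 ± 0.48, edgeR adjusted p = 0.888). Mafg, a small Maf factor gene that starts 168 bases from Gm17586, was at 128, 113 and 97.2 CPM and at 121, 127 and 124 CPM (0.14 ± 0.15, edgeR adjusted p = 0.586). Both divergent pairs printed above have CG-rich windows, and Msi2 was called whereas Mafg was not.

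**Figure D2:**
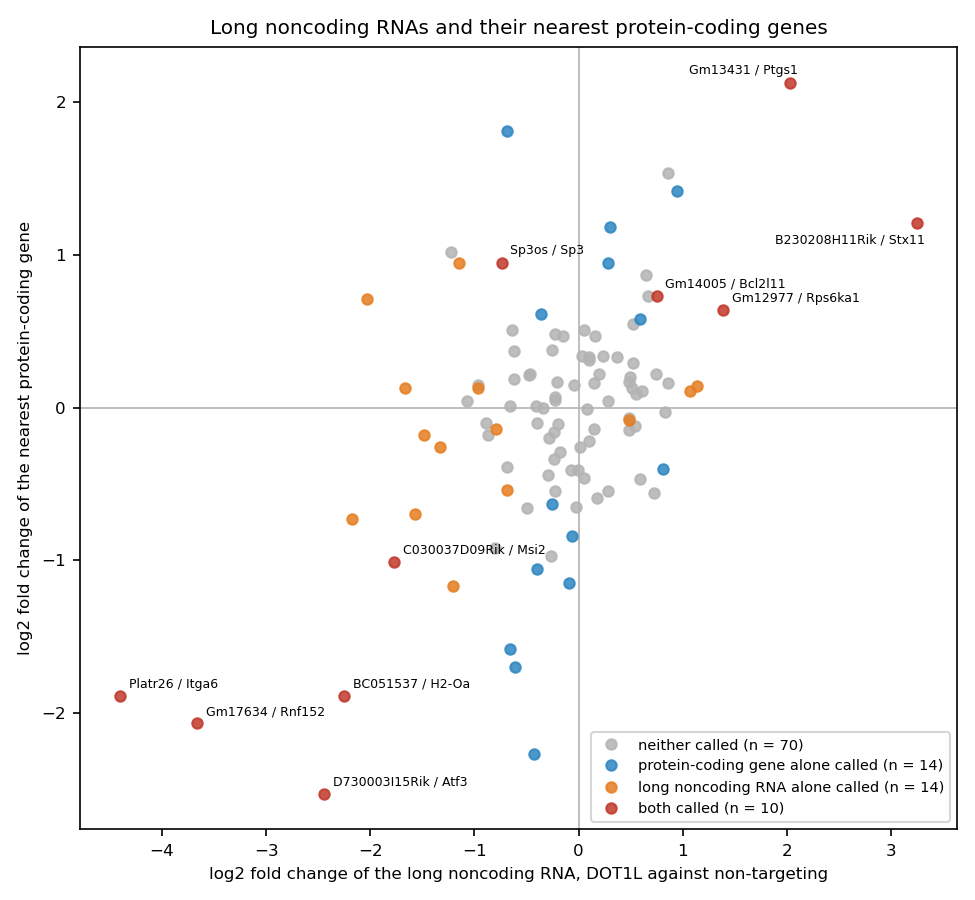
Log2 fold change in the DOT1L knockout of each long noncoding RNA (x axis) and of its nearest protein-coding gene (y axis), for the 108 pairs in which both were tested. Of these, 10 pairs have both genes called (named in the plot), and Sp3os with Sp3 is the pair of those 10 with opposite signs.

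In the MLLT1 knockout, 7 members were lower and 1 was higher than in the control, together 5.63% beside 2.58% of all tested genes, and all 8 were also called in the DOT1L knockout in the same direction. The comparisons share the 3 control libraries, so this is no independent agreement. The lower share was 4.93% of the members beside 1.61% of all tested genes, and the higher share 0.704% beside 0.974%. The lower members were Neat1, Malat1, Hoxb5os, Gm15518, Platr26, 8430423G03Rik and C920021L13Rik, and the higher one was Gm26917. The median log2 fold change was -0.04 over the members and 0.01 over all tested genes. Without non-targeting replicate 2, 1 fall passed, and without non-targeting replicate 3, 3 falls passed.

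Gm15518 (chromosome 16, 49758576 to 49798870), which lies across Ift57 with 10.7% of its exon bases shared, was the call that held under every alternative run. It was at 24.7, 28.8 and 32.3 CPM in the control, at 12.1, 15.7 and 13.9 CPM with MLLT1 guide 1 and at 8.73, 9.74 and 15.6 CPM with guide 2. All 6 libraries lay below the control, and the fall was 1.18 ± 0.21 (edgeR adjusted p = 0.00197). Ift57 itself, a cilium transport gene, was higher by 0.82 ± 0.22 (edgeR adjusted p = 0.0425). With guide 1 Malat1 measured 52.5, 63.9 and 68.1 CPM, and with guide 2 61.1, 64.8 and 63.0 CPM, all below the lowest control library at 87.0 CPM. Its fall of 0.80 ± 0.17 (edgeR adjusted p = 0.00869) did not hold without non-targeting replicate 2 (0.124) or 3 (0.0725).

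Hoxb5os stood between its control and DOT1L knockout levels, at 4.37, 18.1 and 16.3 CPM with MLLT1 guide 1 and at 12.3, 23.3 and 22.8 CPM with guide 2. Its fall of 1.33 ± 0.31 (edgeR adjusted p = 0.0216) did not hold without non-targeting replicate 2 (0.158) or 3 (0.216), without MLLT1 guide 2 replicate 1 (0.0511) and when only the compared groups were fitted (0.148). With guide 1 Platr26 measured 12.4, 11.4 and 11.1 CPM, with guide 2 8.13, 12.8 and 7.44 CPM, and its fall of 1.10 ± 0.23 (edgeR adjusted p = 0.00984) did not hold without non-targeting replicate 2 (0.124). Its neighbour Itga6 fell as well, by 0.75 ± 0.16 (edgeR adjusted p = 0.00859). 8430423G03Rik fell by 1.24 ± 0.28 (edgeR adjusted p = 0.0166), and was lost without non-targeting replicate 2 (0.116) or 3 (0.137). C920021L13Rik fell by 1.28 ± 0.29 (edgeR adjusted p = 0.0160), and was lost without non-targeting replicate 2 (0.338) and when only the compared groups were fitted (0.108).

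Under MLLT1 guide 1 Neat1 measured 204, 238 and 272 CPM, and under guide 2 211, 264 and 263 CPM. These levels overlapped the control, whose replicate 1 was at 223 CPM. The fall of 0.95 ± 0.25 (edgeR adjusted p = 0.0394) was lost in 9 of 15 alternatives: without non-targeting replicate 2 (0.338) or 3 (0.272), without MLLT1 guide 1 replicate 1 (0.0709) or 2 (0.0638), without guide 2 replicate 1 (0.0898), 2 (0.0589) or 3 (0.0519), when only the compared groups were fitted (0.120), and without 2 libraries that correlated least with their groups, MLLT1 guide 1 replicate 1 and MLLT6 guide 1 replicate 3 (0.0691).

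In the MLLT10 knockout, Gm26917 was the one member called, higher by 1.42 ± 0.30 (edgeR adjusted p = 0.0261), which is 0.704% of the members beside 0.236% of all tested genes. Its levels were 478, 329 and 231 CPM with MLLT10 guide 1 and 553, 355 and 286 CPM with guide 2, all above the highest control library at 209 CPM. The call was lost without non-targeting replicate 2 (0.183) or 3 (0.279), without replicate 1 of guide 1 (0.0643) or guide 2 (0.0652) and when only the compared groups were fitted (0.132). In the MLLT1 knockout it was higher by 1.16 ± 0.29 (edgeR adjusted p = 0.0323). There the call was lost without non-targeting replicate 2 (0.195) or 3 (0.255), without MLLT1 guide 1 replicate 2 (0.0683), guide 2 replicate 2 (0.0604) or 3 (0.0559) and when only the compared groups were fitted (0.0636). No member was lower in the MLLT10 knockout (edgeR), 0.00% beside 0.236% of all genes, and DESeq2 also called none lower. In either direction 0.473% of all genes were called, and 9 members (6.34%) had an unadjusted p under 0.05, beside 9.58% of all genes.

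In the MLLT6 knockout no member was called by edgeR, as no gene was (0.00% of all tested genes), nor by DESeq2. At an unadjusted p under 0.05 there was 1 member (0.704%), beside 6.87% of all genes. Under MLLT6 guide 1 Platr26 measured 24, 45.1 and 51.5 CPM, under guide 2 23.9, 28.4 and 21.9 CPM, beside 22.3, 26.9 and 19.1 CPM in the control (log2 fold change 0.47). Under guide 1 Neat1 measured 327, 509 and 440 CPM and under guide 2 277, 408 and 387 CPM, within the range of the control. Hoxb5os was likewise within the control range, from 30.7 to 46.9 CPM over the 6 libraries.

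Single guides called fewer members. MLLT1 guide 1 called 5 lower (Malat1, Hoxb5os, Sp3os, Gm15518 and 8430423G03Rik; 3.52% beside 1.25% of all genes), and guide 2 called 2 lower (Gm15518 and Platr26; 1.41% beside 1.22%). MLLT10 guide 2 called Gm26917 higher (0.704% beside 0.303%), and MLLT10 guide 1 and both MLLT6 guides called no member by edgeR (beside 0.170%, 0.00% and 0.00% of all genes), with 6, 10 and 2 members (4.23%, 7.04% and 1.41%) at an unadjusted p under 0.05, beside 6.62%, 13.1% and 2.70% of all genes. DESeq2 called 1 member with MLLT10 guide 1 and none with either MLLT6 guide. Between the guides of a gene no member differed for MLLT10, MLLT1 or MLLT6 (edgeR and DESeq2), with 0.00%, 1.41% and 7.75% of the members at an unadjusted p under 0.05 beside 1.72%, 2.10% and 9.29% of all genes. Sp3os had log2 fold changes of -1.01 with MLLT1 guide 1 and -0.22 with guide 2, and the difference between guides was 0.79 ± 0.25 (edgeR adjusted p = 1.0).

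**Figure D3:**
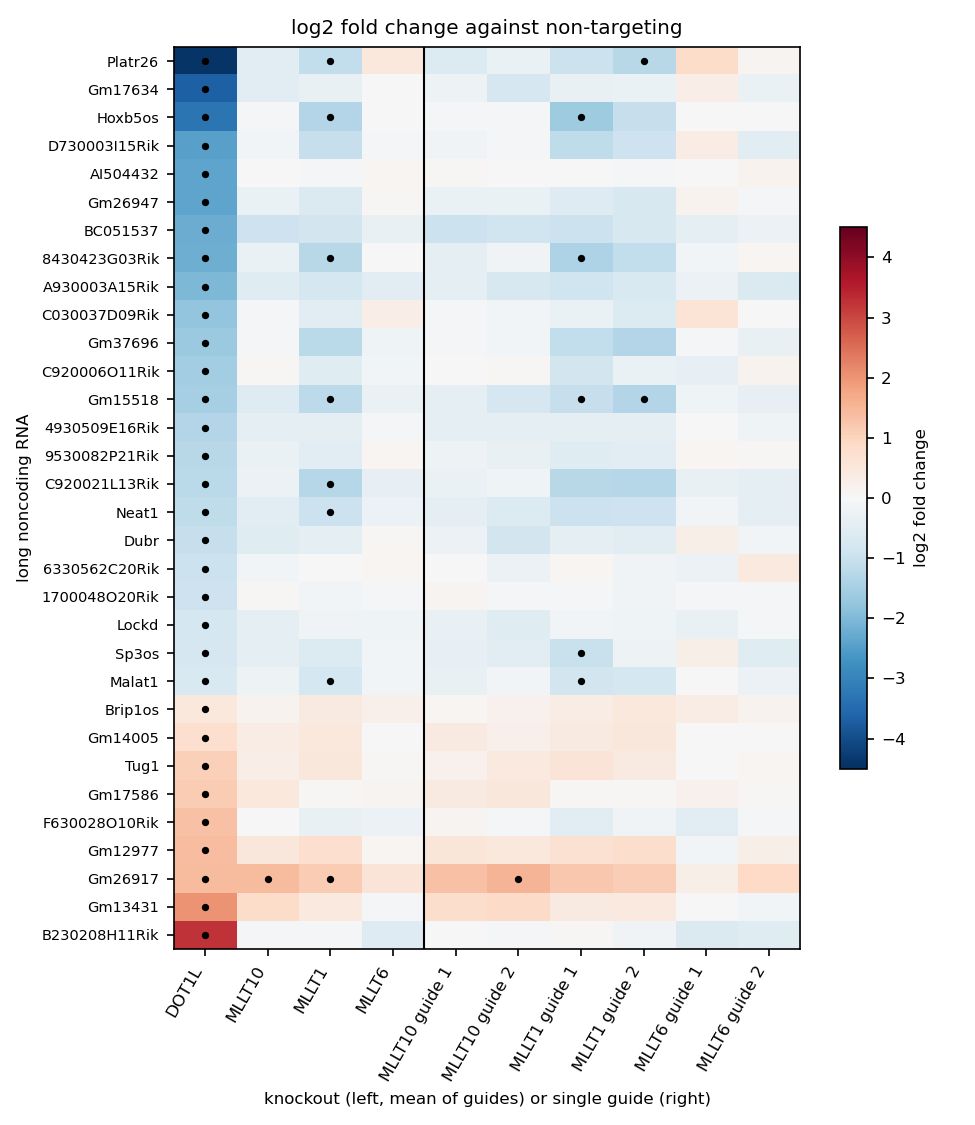
Log2 fold change against the non-targeting control (colour) for the 32 called long noncoding RNAs (rows), in each knockout (left 4 columns) and with each single guide (right 6 columns), with a dot where the edgeR adjusted p was under 0.05. The DOT1L column holds 32 dots, the MLLT1 column 8, the MLLT10 column 1 and the MLLT6 column none.

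Knockouts were also compared with each other. Between MLLT10 and DOT1L 37 members differed (26.1% beside 23.5% of all tested genes), between MLLT1 and DOT1L 24 (16.9% beside 19.6%) and between MLLT6 and DOT1L 44 (31% beside 29.3%), shares near those of all genes. Of the 32 members called in the DOT1L knockout against the control, 16 also differed from all 3 other knockouts, or 50% beside 62.5% of all genes called there. These counts, and the total of 55 given below, include B230208H11Rik and C030037D09Rik. The membership of B230208H11Rik rests on the DOT1L libraries. C030037D09Rik would have missed the threshold without the control libraries, or without those of either MLLT6 guide. Platr26 was higher than in the DOT1L knockout by 3.93 ± 0.36 with MLLT10, 3.29 ± 0.36 with MLLT1 and 4.87 ± 0.35 with MLLT6 (largest edgeR adjusted p, 2.95e-07). F630028O10Rik was lower by 1.33 ± 0.23, 1.66 ± 0.23 and 1.60 ± 0.23 in the same order. The miR-223 host averaged 105 CPM with MLLT10, 83.0 CPM with MLLT1 and 86.8 CPM with MLLT6, and each of those 18 libraries was below the lowest DOT1L library at 227 CPM.

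Hoxb5os was highest in the control, MLLT10 and MLLT6 groups, which were not told apart (lowest edgeR adjusted p of the 3 pairs, 0.971), lower with MLLT1 and lowest with DOT1L. It was lower with MLLT1 than with MLLT10 by 1.27 ± 0.26 (edgeR adjusted p = 0.00623) and higher with MLLT1 than with DOT1L by 1.97 ± 0.41 (adjusted p = 0.00102). Malat1 and Gm15518 were not told apart between the MLLT1 and DOT1L knockouts, with differences of -0.11 ± 0.17 (edgeR adjusted p = 0.742) and 0.30 ± 0.22 (adjusted p = 0.438). Malat1 was lower with MLLT1 than with MLLT10 by 0.58 ± 0.14 (edgeR adjusted p = 0.0212). Between MLLT1 and MLLT10 9 members differed in all (6.34% beside 2.68% of all tested genes), between MLLT6 and MLLT1 8 (5.63% beside 4.46%), and between MLLT6 and MLLT10 only Platr26, higher with MLLT6 by 0.94 ± 0.19 (edgeR adjusted p = 0.0139; 0.704% beside 0.766%).

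In all, 55 members differed in at least 1 comparison of knockouts, or 38.7% beside 34.7% of all tested genes, and 23 of the 55 were not called against the control. Mir142hg was among these, with 10.1, 8.75 and 10.8 CPM under MLLT1 guide 1, 14.7, 8.95 and 10.9 CPM under guide 2 and 16, 21 and 21.7 CPM in the DOT1L knockout. It was lower with MLLT1 than with DOT1L by 0.89 ± 0.26 (edgeR adjusted p = 0.0147). Epb41l4aos was higher with MLLT6 than with DOT1L by 0.61 ± 0.20 (edgeR adjusted p = 0.0228).

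Part of the spread within groups followed the replicate number in the labels, which is shared between groups. The lowest Neat1 library was replicate 1 in all 8 groups, from 179 CPM in the DOT1L knockout to 327 CPM with MLLT6 guide 1. Mir17hg was the reverse: replicate 1 was the highest in all 8 groups, from 50.4 to 76.3 CPM, while replicates 2 and 3 lay between 22.2 and 38.8 CPM. For Snhg6 replicate 3 was the highest in 7 of 8 groups, at up to 73.9 CPM, and the exception was MLLT6 guide 1, where replicate 3 was at 1.24 CPM. Snhg6 had the widest spread of all members, a median coefficient of variation within groups of 129% beside a median of 23.9% over the members.

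For 6 members a replicate number was the extreme in all 8 groups, 4.23% of the members beside 2.54% of all tested genes: AI480526, Dubr, Gm21814 and Neat1, with replicate 1 lowest, and Gm26982 and Mir17hg, with replicate 1 highest. In at least 7 groups it was 18 members, or 12.7% beside 12.4%, so this is shared with genes in general. Malat1 and Hoxb5os, with replicate 1 lowest in 7 groups each, were among the 18. What the numbers stand for is not given in the sources used here.

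**Figure D4:**
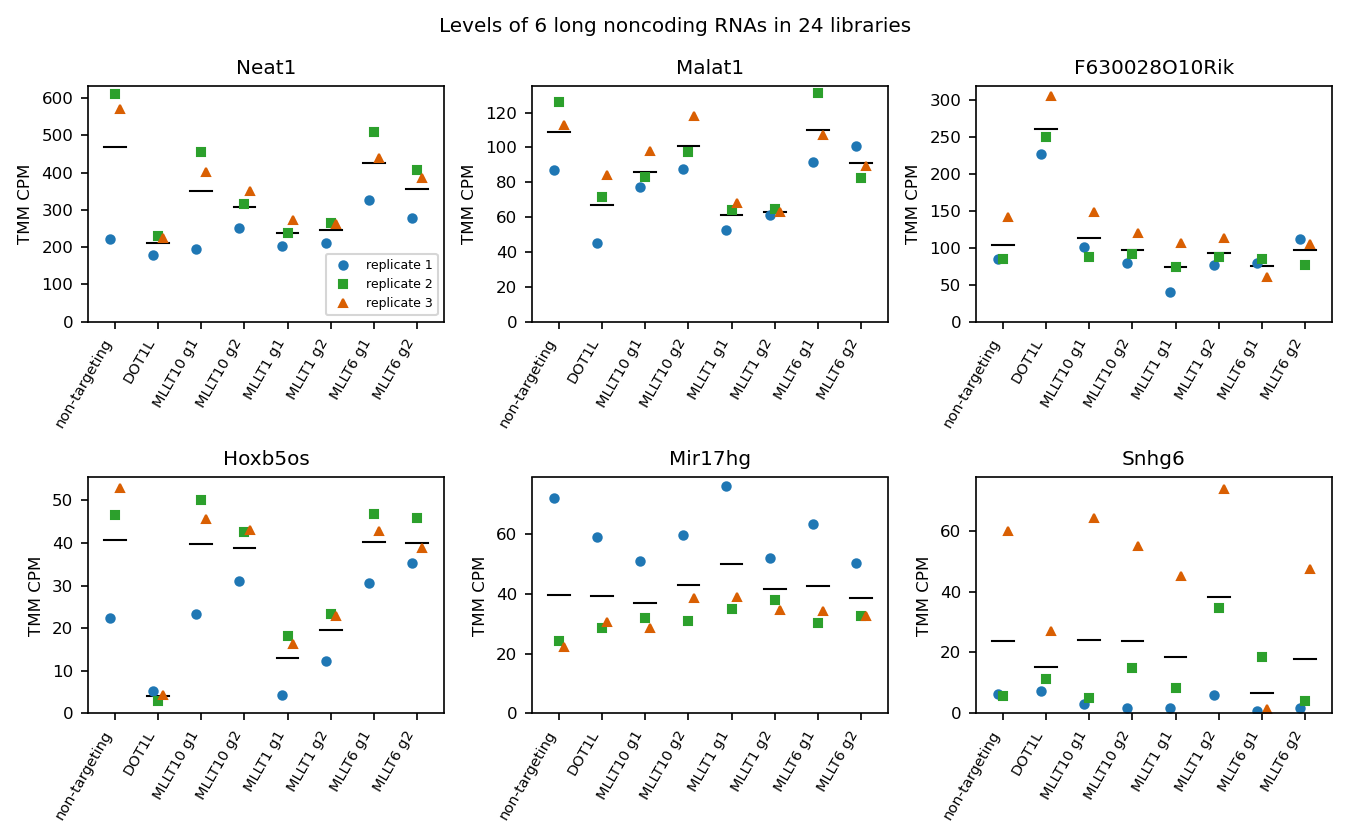
TMM-normalised CPM of 6 long noncoding RNAs in all 24 libraries by group, with the replicate number as colour and shape and the group mean as a bar. Replicate 1 is the lowest for Neat1 and the highest for Mir17hg in each of the 8 groups, and Snhg6 ranges from 0.707 to 73.9 CPM.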

How the data were processed

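RNA-seq of 24 libraries was analysed from the table of counts per gene that the authors deposited. The submitters' processing notes list bcl2fastq, HISAT2, HTSeq, DESeq2 and mm10; of versions, strand setting and library selection the sources used here say nothing. Ensembl identifiers were matched to GENCODE M21, and 1167 of 43629 did not match. The members and gene lists were chosen with earlier results of these data known. Members are genes of 5 types with a mean of at least 5 CPM of the library total. Levels are CPM with TMM normalisation. Counts were tested in 1 fit of all 8 groups with edgeR 4.0.16 (R 4.3.3, quasi-likelihood, filterByExpr), adjusted over 10578 genes by Benjamini-Hochberg in each of 19 comparisons and called at an adjusted p under 0.05; both guides of a gene were averaged for its knockout. The SE was the log2 fold change divided by the root of F. Lists were described by counts and medians. Figures used matplotlib 3.10.9. The fitting script was tested on simulated data. DESeq2 1.42.0, other size factors, no filter, a replicate block, the compared groups alone, other thresholds and each library left out were alternatives. Genes were named by level, by size of change among called members, by list, and as their neighbours. 6330562C20Rik, 9530082P21Rik, Sp3os, Dubr, 1700048O20Rik, 4930509E16Rik, C920006O11Rik, Gm37696 and Gm42418 fell outside this rule and were chosen after their values were seen. So were AI480526, Gm21814 and Gm26982, which were named for their replicate pattern.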

Additional observations from a re-analysis of the deposited data

How the results depend on the processing

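No result changed direction under any alternative. At a threshold of 2 mean CPM there were 255 members, 16 of them higher in the DOT1L knockout (beside 11.2% of all tested genes), and at 10 mean CPM 83. With no filter on low counts, 3 members were higher and 1 lower with MLLT10, 2 higher with MLLT1, 1 higher and 2 lower with MLLT6, 15 were called with single guides (7 in the reported fit) and 1 between guides. Of all genes, that fit called 192 with MLLT10, 463 with MLLT1 and 80 with MLLT6, beside 50, 273 and 0 in the reported fit. In fits of the compared groups alone, 0 were higher with MLLT10, 0 higher and 4 lower with MLLT1, and 0 called with single guides. Of all genes, those fits called 28 with MLLT10 and 97 with MLLT1. Without the 2 libraries that correlated least with their own groups (mean r 0.9475 and 0.9535), a choice made after seeing the data, single guides called 4. Among members sharing no exon bases, 5 neighbour pairs went the same way, B230208H11Rik and C030037D09Rik among them.

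With each library left out in turn, the DOT1L knockout gave 5 to 9 higher and 17 to 25 lower members, MLLT10 0 to 1 higher, MLLT1 0 to 1 higher and 1 to 8 lower, single guides 1 to 10, comparisons between knockouts 39 to 58, and neighbour pairs 7 to 8. No count over all genes was set beside these ranges. The lowest single-guide count, 1, was without non-targeting replicate 2. Of 638 combinations of a called gene and an alternative, 561 stayed past the threshold and 77 did not; beyond the fewer samples or genes of each alternative, the cause was not tested.

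Same-numbered replicates deviated together (every correlation over 0.1) in 8 of 28 pairs of groups, and by this rule the samples were not taken as paired. The rule is strict: for replicate 1 alone the correlations ran from -0.03 to 0.55. The reported fit therefore leaves spread that follows the replicate number in its error. With a replicate block there were 11 higher and 26 lower members with DOT1L, 1 and 0 with MLLT10, 1 and 8 with MLLT1, 8 with single guides, 61 between knockouts and 11 neighbour pairs. Of all genes, that fit called 2686 with DOT1L, 79 with MLLT10 and 457 with MLLT1, beside 2309, 50 and 273 in the reported fit. Members near the threshold rest on few counts in libraries of 2403044 counts, and small changes in them were not detectable.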

Other observations

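Genes of other noncoding types with the same mean level were not among the members: 53 processed transcripts and 3 genes of the annotation type TEC, all tested. In the DOT1L knockout 3 processed transcripts were higher and 12 lower (edgeR), and 2 of the 3 other genes were lower, beside 11.2% higher and 10.7% lower of all tested genes. Gas5, a snoRNA host, was the most abundant example named here, at 740 to 897 CPM in the control and at 535 to 606 CPM in the DOT1L knockout. The largest fall named here was that of 9630013D21Rik, at 47.0 to 57.9 CPM in the control and at 3.20 to 5.94 CPM in the knockout (log2 fold change -3.61 ± 0.21, edgeR adjusted p = 1.37e-11). 2410006H16Rik went from 598 to 718 CPM in the control to 320 to 401 CPM in the knockout (-0.79 ± 0.20, edgeR adjusted p = 0.00514).

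2610507I01Rik was at 2.19 to 3.11 CPM in the control and at 15 to 17.8 CPM in the DOT1L knockout, a rise of 2.56 ± 0.37 (edgeR adjusted p = 1.65e-05), and it was also higher in the MLLT1 knockout by 1.33 (adjusted p = 0.0394). AA465934 was lower in both, by log2 fold changes of -1.54 with DOT1L and -0.85 with MLLT1 (edgeR adjusted p = 0.000139 and 0.0315). These comparisons share their control libraries. These genes were chosen for naming after their values were seen.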
